A study of Mus musculus with 4 samples.

Results

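The 33 genes described here carry glucose through the blastocyst, from its import to lactate, into the mitochondrion as pyruvate, or sideways into the pentose phosphate pathway. They were taken by symbol from a deposited expression table of 22013 genes, and all 33 were found. Poly(A) RNA was sequenced from Ywhaz KO mouse blastocysts, with 2 libraries, and from control blastocysts, also with 2 libraries. The KO embryos were C57BL/6 zygotes given CRISPR-Cas9 against Ywhaz, the gene of a 14-3-3 adaptor protein, and grown in culture to blastocysts. Controls were C57BL/6 wild type embryos, and the labels disagree on whether they received Cas9 protein alone, a control guide RNA or no treatment. KO library names begin with si, while the protocol is one of genome editing. Every library is a pool of 5 blastocysts under a single batch label (each library is called a pool here), and the edits of single embryos are not given. Whether a group's pools stem from different matings or experiments is not stated in the labels, and the tests therefore weigh only differences among these pools, part of which may be technical.

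Glycolysis splits glucose into pyruvate in the cytosol, and pyruvate is then reduced to lactate or enters the mitochondrion, where pyruvate dehydrogenase turns it into acetyl-CoA. The pentose phosphate pathway branches off early and makes NADPH and the ribose phosphate of nucleotides. Mouse embryos in early cleavage live on pyruvate and lactate, and glucose uptake increases as the blastocyst forms.

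Expression was given as FPKM, fragments scaled by transcript length and by the depth of the library. The table holds no counts. The spacing of the lowest values put the depth at 18.2 and 17.3 (in units of 1e6 fragments) in KO pools 1 and 2, and at 18.3 and 18.5 in control pools 1 and 2, if fragments are 200 nt. At 0.1 FPKM a transcript of 2 kb would yield 3.11 to 3.33 fragments, so the lowest values rest on a handful of fragments. Ywhaz was at 32.7 and 98.2 FPKM in the KO pools, against 143 and 123 FPKM in the control pools. The deficit was uneven, because KO pool 1 held far less Ywhaz RNA than KO pool 2, and it did not pass adjustment (log2 fold change −1.21, SE 0.39, adjusted p = 0.305 by limma). Without KO pool 2 the log2 fold change was −1.99 (limma adjusted p = 6.9e-09, with the spread taken from the control pools alone), and without KO pool 1 it was −0.43, so the library labelled KO pool 2 lay much nearer to the controls in Ywhaz RNA.

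The levels of the 33 genes spanned a wide range. Gapdh, glyceraldehyde phosphate dehydrogenase, came first with a mean of 2218 FPKM over the 4 pools. Mpc1, a subunit of the mitochondrial pyruvate carrier, came second at 938 FPKM, and the aldolase Aldoa next at 329 FPKM. Pdhb (250.4 FPKM), the pentose phosphate enzyme Taldo1 (177 FPKM) and Mpc2 (164 FPKM) completed the 6 genes that averaged 100 FPKM or more. At the low end, 6 genes had a mean under 1 FPKM: Pfkfb3, Aldoc, Pfkm, Slc16a3, Pfkp and Pdk1. Ordered by level, 26 of the 32 neighbouring pairs overlapped in their ranges over the 4 pools. The 6 pairs that did not overlap were Gapdh and Mpc1, Mpc1 and Aldoa, Pdhb and Taldo1, Mpc2 and Pgls, Pgam1 and Pdha1, and Slc16a1 and Ldhb. Enzymes of consecutive steps differed greatly per length. The mean level of Gapdh was 146 times that of Tpi1, the step before it, and 71.9 times that of Pgk1, the step after it. Together the 33 genes took 0.399% and 0.538% of all FPKM in the KO pools, against 0.570% and 0.526% in the control pools. Gapdh alone was 37.3% and 45.9% of that sum in the KO pools, against 52.4% and 53.3% in the control pools. With Gapdh left out, the other 32 genes summed to 2339.9 and 2522 FPKM in the KO pools and 2438 and 2322 FPKM in the control pools, which overlap. With Mpc1 left out as well, the sums were 1239 and 1706 FPKM in KO pools 1 and 2, against 1571 and 1353 FPKM in control pools 1 and 2. The lowest and the highest of these sums both came from KO pools.

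**Figure D1:**
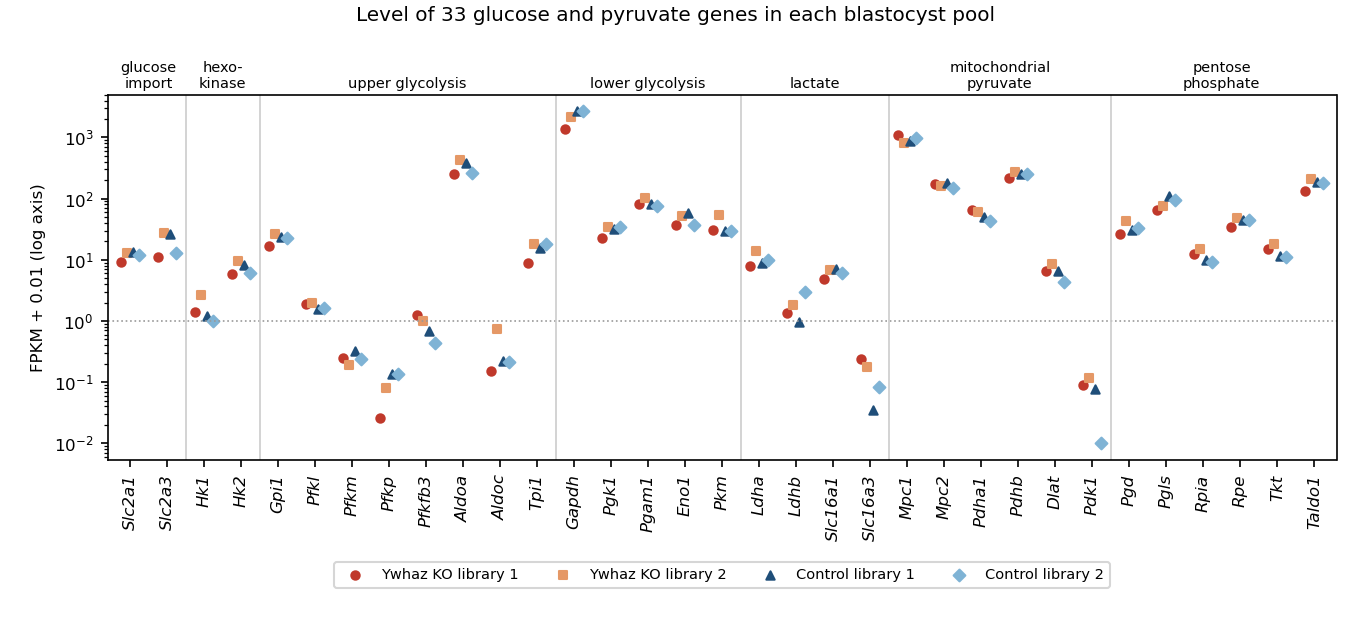
FPKM of each of the 33 genes in each of the 4 blastocyst pools (y axis, log scale after adding 0.01 FPKM), grouped by metabolic step along the x axis. Circles and squares are the Ywhaz KO pools, triangles and diamonds the control pools, and the dotted line marks 1 FPKM; Gapdh lies at the top, and the 6 genes with a mean under 1 FPKM lie mostly below the line.

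No gene of the set changed past the threshold between KO and control blastocysts. Of the 33 genes, 27 averaged 1 FPKM or more and were tested, and 0 passed a limma adjusted p of 0.05, fitted over 9544 genes, of which 7 passed (0.0733%). Before adjustment, 4 of the 27 genes had a limma p under 0.05, against 11.1% of all genes tested. Of these, 2 were higher in KO pools, Tkt and Pdha1 (background 7.75%), and 2 were lower, Gapdh and Pgls (background 3.33%). With each library rescaled to a fixed total, as in TPM, the split was 0 higher and 2 lower, by median-of-ratios scaling it was 1 and 2, and after quantile normalization it was 1 and 1. With these 3 scalings, 875, 1251 and 1249 of all genes had an unadjusted p under 0.05. Leaving out KO pool 1 gave 4 higher and 0 lower, leaving out KO pool 2 gave 1 and 5, leaving out control pool 1 gave 0 and 1, and leaving out control pool 2 gave 0 and 2. In the same 4 fits, 1339, 1380, 539 and 769 of all genes had an unadjusted p under 0.05, against 1058 with every pool. The authors' deposited table calls 0 of the 33 genes at an FDR of 0.05, where it calls 53 of 22013 genes (0.241%), and its smallest FDR in the set is 0.338. The fold changes were spread around zero, with 14 positive and 13 negative, of which 5 small positive ones turned negative by median-of-ratios scaling. Their median was 0.04 on the log2(FPKM + 1) scale, beside 0.05 for all genes tested. Both KO pools lay above both control pools for 7 genes (background 27.4%) and below them for 2 genes (background 14.0%), so 9 of 27 did not overlap, against 41.4% of all genes tested. In pools of whole embryos, fewer cells of a type and less RNA per cell cannot be told apart.

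**Figure D2:**
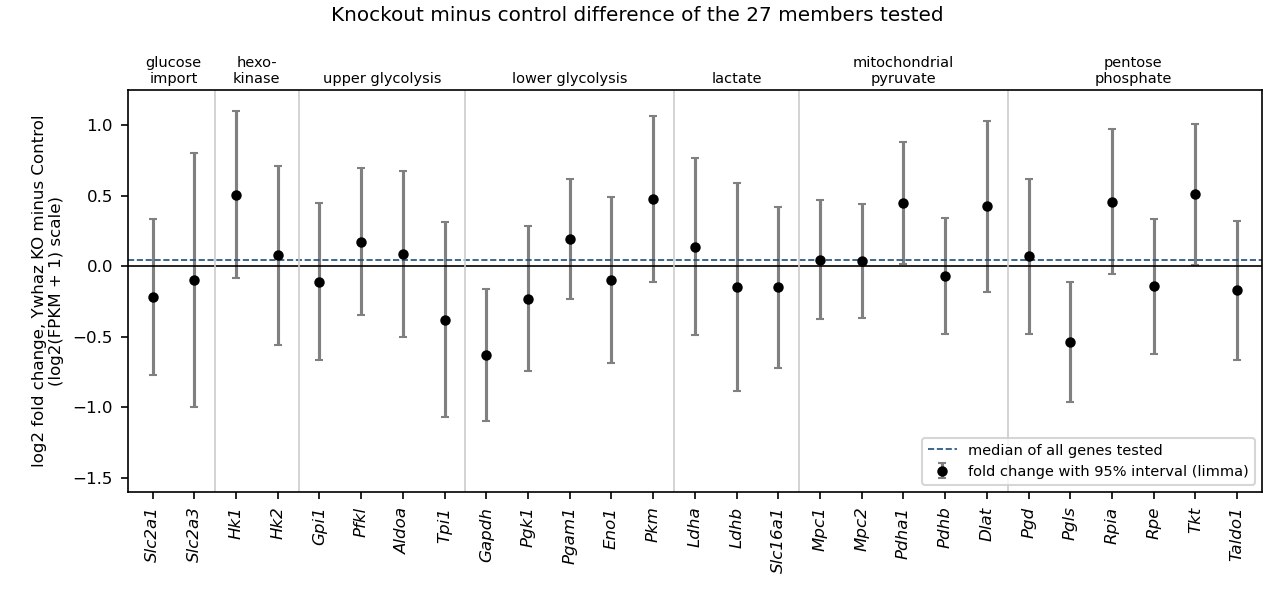
Log2 fold change, Ywhaz KO minus control on the log2(FPKM + 1) scale (y axis), of the 27 genes tested, grouped by metabolic step. Points are limma estimates with 95% intervals, and the dashed line is the median of all genes tested; only the intervals of Gapdh, Pdha1, Pgls and Tkt leave out zero.

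The largest deficit was in Gapdh, which makes the bisphosphoglycerate from which the first ATP of glycolysis is won. Gapdh was at 1393 and 2139 FPKM in the KO pools, against 2688 and 2650 FPKM in the control pools. The control pools were nearly equal, and both KO pools lay below them, KO pool 1 by the most. The KO mean of 1766 ± 528 FPKM was 66.2% of the control mean of 2669 ± 26.7 FPKM (SD, n = 2 each), a log2 fold change of −0.63 with an SE of 0.21 (limma adjusted p = 0.327). Without KO pool 2 the log2 fold change was −0.94 and passed (limma adjusted p = 0.00471, with the lone KO pool assumed to vary like the controls and the spread taken from them alone), and without KO pool 1 it was −0.32 (limma adjusted p = 0.511). The retrogene copies Gapdhrt and Gapdhrt2 were listed at 1.78 to 2.66 FPKM in the KO pools and at 2.79 to 3.76 FPKM in the control pools. Reads shared between Gapdh and these copies could be split by the authors' counting. The sum of all 3 genes was 1397 and 2144 FPKM in the KO pools, against 2695 and 2657 FPKM in the control pools.

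Pgls, 6-phosphogluconolactonase of the oxidative pentose phosphate branch, was the other tested gene below control in both KO pools. It was at 65.5 and 76.2 FPKM in the KO pools, against 112 and 95.1 FPKM in the control pools. The KO mean was 70.8 ± 7.62 FPKM and the control mean 103 ± 11.6 FPKM (SD, n = 2 each), a log2 fold change of −0.54 with an SE of 0.19 (limma adjusted p = 0.347). Tkt, the transketolase of the non-oxidative branch, went the other way. Tkt was at 15.0 and 17.9 FPKM in the KO pools, against 11.4 and 11.0 FPKM in the control pools. Its KO mean of 16.4 ± 2.00 FPKM was 147% of the control mean of 11.2 ± 0.327 FPKM (SD, n = 2 each), a log2 fold change of 0.51 with an SE of 0.23 (limma adjusted p = 0.442). Pdha1, the X-linked alpha subunit of pyruvate dehydrogenase, was at 66.0 and 59.9 FPKM in the KO pools, against 49.6 and 42.4 FPKM in the control pools. Its KO mean of 62.9 ± 4.34 FPKM was 137% of the control mean of 46.0 ± 5.12 FPKM (SD, n = 2 each), a log2 fold change of 0.45 with an SE of 0.19 (limma adjusted p = 0.437). Each of these 3 genes kept its direction when any single pool was left out. For Pgls the log2 fold change then ran from −0.65 to −0.42, for Tkt from 0.39 to 0.63 and for Pdha1 from 0.34 to 0.56, and 0 of the 3 passed adjustment. The authors' deposited table gives an unadjusted p of 0.00524 for Gapdh, 0.00885 for Pgls, 0.0466 for Tkt and 0.0627 for Pdha1.

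Promoters of the set were set beside those of all genes, using the 250 bases before each RefSeq start on GRCm38.p6, which is not the authors' build. Of the 33 genes, 32 had an entry, with 47 promoters in all. Searched on both strands, GGGCGG, the GC box bound by Sp1 and its relatives, was in 29 of the 47 promoters (61.7%), against 32.7% of 32851 promoters. ACGTG, the core of the hypoxia response element, was in 15 of 47 (31.9%), against 16.6%. The E-box CACGTG, which contains ACGTG, was in 4 of 47 (8.51%), against 6.02%. The median GC content was 61.6% in the set and 52.4% over all promoters, so these letters are found in a set that is also richer in G and C. The promoters of the 4 genes with the smallest p are printed here with that of Pgk1, the phosphoglycerate kinase gene, as a member that holds ACGTG. Letters run 5′ to 3′ on the gene's strand, and capitals mark ACGTG or GGGCGG on either strand. Gapdh spans chr6:125161715-125166467 on the minus strand, Pdha1 chrX:160122209-160138413 on the minus strand, Pgls chr8:71592176-71601092 on the plus strand, Tkt chr14:30548359-30574720 on the plus strand and Pgk1 chrX:106187100-106203699 on the plus strand of GRCm38.
Gapdh, chr6:125165774-125166023, minus strand: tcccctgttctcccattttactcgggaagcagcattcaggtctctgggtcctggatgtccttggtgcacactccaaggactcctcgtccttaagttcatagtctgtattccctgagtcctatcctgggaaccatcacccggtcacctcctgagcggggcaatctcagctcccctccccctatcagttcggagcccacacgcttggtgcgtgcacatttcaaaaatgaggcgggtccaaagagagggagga
Pdha1, chrX:160138431-160138680, minus strand: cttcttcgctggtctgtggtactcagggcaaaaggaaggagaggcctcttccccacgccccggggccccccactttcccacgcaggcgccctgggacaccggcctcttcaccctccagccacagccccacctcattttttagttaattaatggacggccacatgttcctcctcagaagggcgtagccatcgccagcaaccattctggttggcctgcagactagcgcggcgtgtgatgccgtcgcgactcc
Pgls, chr8:71591934-71592183, plus strand: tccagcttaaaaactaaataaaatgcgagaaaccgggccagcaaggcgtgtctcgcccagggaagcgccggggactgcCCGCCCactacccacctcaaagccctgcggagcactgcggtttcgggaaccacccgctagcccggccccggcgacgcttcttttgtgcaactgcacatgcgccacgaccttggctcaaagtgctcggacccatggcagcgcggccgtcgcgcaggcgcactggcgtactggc
Tkt, chr14:30548881-30549130, plus strand: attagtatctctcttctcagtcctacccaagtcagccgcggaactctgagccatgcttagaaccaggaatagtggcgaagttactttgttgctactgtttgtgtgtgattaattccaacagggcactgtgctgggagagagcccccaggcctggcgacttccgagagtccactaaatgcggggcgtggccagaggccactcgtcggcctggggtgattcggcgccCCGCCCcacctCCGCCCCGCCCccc
Pgk1, chrX:106186850-106187099, plus strand: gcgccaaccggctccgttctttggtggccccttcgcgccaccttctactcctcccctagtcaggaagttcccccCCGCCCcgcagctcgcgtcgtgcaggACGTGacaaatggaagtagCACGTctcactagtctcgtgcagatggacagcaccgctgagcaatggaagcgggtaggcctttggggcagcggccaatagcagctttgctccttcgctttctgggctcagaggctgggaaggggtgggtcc
In these windows the Gapdh and Pdha1 promoters hold neither string, Pgls holds 1 GGGCGG, Tkt holds 3 close to the RefSeq start, and Pgk1 holds 1 GGGCGG and 2 ACGTG. The windows of Gapdh and Tkt, and the last bases of that of Pgls, lie inside the gene spans given above. For these genes the RefSeq start used lies downstream of the start of the span. Of the tested genes, 9 had ACGTG in a promoter, and their log2 fold changes ran from −0.23 to 0.48 with 0 at a limma p under 0.05 (smallest 0.0997, and 11.1% over all genes tested), a count too small to set these 9 apart. A match is a run of letters and no evidence of a bound factor.

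Glucose enters through the facilitative transporters GLUT1, encoded by Slc2a1, and GLUT3, encoded by Slc2a3, and both overlapped between the groups. Slc2a1 was at 9.03 and 12.9 FPKM in the KO pools, against 13.5 and 12.1 FPKM in the control pools (log2 fold change −0.22, SE 0.25, adjusted p = 0.788 by limma). Slc2a3, the transporter of the outer trophectoderm face in mouse blastocysts, was at 11.1 and 26.9 FPKM in the KO pools, against 26.7 and 12.9 FPKM in the control pools. One pool of each group was high and the other low, and the spread within a group exceeded the difference between groups (log2 fold change −0.10 ± 0.41 SE). Glucose is then phosphorylated by hexokinase. Hk2, the more abundant of both hexokinase genes here, was at 5.91 and 9.54 FPKM in the KO pools, against 8.27 and 6.05 FPKM in the control pools (log2 fold change 0.08 ± 0.29 SE). Hk1 was low but lay above control in both KO pools, at 1.41 and 2.63 FPKM, against 1.19 and 0.970 FPKM in the control pools. Its log2 fold change was 0.51 ± 0.27 SE (limma adjusted p = 0.519), and it was 0.80 without KO pool 1 and 0.21 without KO pool 2.

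In upper glycolysis, which turns glucose phosphate into triose phosphates, the tested genes were Gpi1, Pfkl, Aldoa and Tpi1. Gpi1, the isomerase, was at 16.7 and 26.7 FPKM in the KO pools, against 23.3 and 22.5 FPKM in the control pools. Pfkl, the liver-type phosphofructokinase of the committing step, had 1.86 and 1.97 FPKM in the KO pools, above the control pools with 1.55 and 1.62 FPKM (log2 fold change 0.17 ± 0.23 SE). Aldoa had 253 and 431 FPKM in the KO pools, against 375 and 257 FPKM in the control pools. The highest and the lowest Aldoa value thus both came from KO pools. Tpi1, triose phosphate isomerase, had 8.77 and 18.3 FPKM in the KO pools, against 15.4 and 18.4 FPKM in the control pools, with KO pool 1 apart from the other 3 pools (log2 fold change −0.38, SE 0.31, adjusted p = 0.711 by limma). The mean level of Aldoa was 188 times that of Pfkl, which was the only phosphofructokinase gene above 1 FPKM.

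The 6 genes averaging under 1 FPKM were not tested, and 4 of them belong to upper glycolysis. Pfkm, the muscle type, was listed at 0.178 to 0.234 FPKM in the KO pools and at 0.230 to 0.316 FPKM in the control pools. Pfkp, the platelet type, was at 0.016 and 0.070 FPKM in the KO pools and at 0.126 and 0.128 FPKM in the control pools. Pfkfb3 makes the sugar bisphosphate that activates phosphofructokinase, and it was at 1.26 and 0.971 FPKM in the KO pools, against 0.671 and 0.430 FPKM in the control pools. Aldoc, the brain-type aldolase, was between 0.140 and 0.735 FPKM in the KO pools and between 0.207 and 0.211 FPKM in the control pools.

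From Gapdh to pyruvate kinase, the genes of lower glycolysis other than Gapdh showed differences within or near the spread between pools. Pgk1, which makes ATP from bisphosphoglycerate, had 23.0 and 34.1 FPKM in the KO pools, against 32.1 and 34.0 FPKM in the control pools (log2 fold change −0.23 ± 0.23 SE). Pgam1, phosphoglycerate mutase, had 81.3 and 101 FPKM in the KO pools, against 81.4 and 77.0 FPKM in the control pools (log2 fold change 0.19 ± 0.19 SE). Eno1, the enolase, had 36.4 and 52.6 FPKM in the KO pools, against 59.0 and 37.2 FPKM in the control pools. Its near-identical copy Eno1b had 4.94 and 15.7 FPKM in the KO pools, against 5.68 and 2.08 FPKM in the control pools. Its log2 fold change of 1.13 was 1.88 without KO pool 1 and 0.39 without KO pool 2. Eno1b was therefore 11.9% and 23.0% of the Eno1 and Eno1b sum in the KO pools, against 8.78% and 5.30% in the control pools, and reads shared by the copies could be split either way by the authors' counting. Pkm, pyruvate kinase, which makes the last ATP of the pathway, had 30.9 and 54.8 FPKM in the KO pools, against 29.4 and 29.2 FPKM in the control pools. Both KO pools lay above the control pools, KO pool 1 by little (log2 fold change 0.48, SE 0.26, adjusted p = 0.547 by limma). The log2 fold change rested on KO pool 2, at 0.88 without KO pool 1 and 0.076 without KO pool 2. The table gives 1 value per gene, so the PKM1 and PKM2 splice forms could not be told apart.

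The tested lactate genes overlapped between the groups. Ldha, the subunit that favours lactate formation, had 7.90 and 13.9 FPKM in the KO pools, against 8.93 and 9.99 FPKM in the control pools (log2 fold change 0.14 ± 0.28 SE). Ldhb had 1.32 and 1.78 FPKM in the KO pools, against 0.967 and 3.01 FPKM in the control pools, where the control pools bracketed both KO pools. The monocarboxylate transporter gene Slc16a1, which encodes MCT1, had 4.86 and 6.67 FPKM in the KO pools, against 6.94 and 5.97 FPKM in the control pools (log2 fold change −0.15 ± 0.26 SE). Slc16a3, which encodes the lactate exporter MCT4, was not tested, with 0.226 and 0.169 FPKM in the KO pools and 0.025 and 0.074 FPKM in the control pools.

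Entry of pyruvate into the mitochondrion stood out by its levels and not by a difference between groups. Mpc1 had 1101 and 815 FPKM in the KO pools, against 867 and 969 FPKM in the control pools (log2 fold change 0.05 ± 0.19 SE, 95% interval −0.38 to 0.47). Mpc2, its obligate partner in the carrier, had 170.1 and 161 FPKM in the KO pools, against 178 and 146 FPKM in the control pools (log2 fold change 0.04 ± 0.18 SE, 95% interval −0.37 to 0.44). The mean level of Mpc1 was thus 5.73 times that of its partner per length. Pdhb, the beta subunit of pyruvate dehydrogenase, had 216 and 275 FPKM in the KO pools, against 255 FPKM in each control pool (log2 fold change −0.07 ± 0.18 SE). Its level was 4.60 times that of Pdha1 and 38.4 times that of Dlat, the acetyltransferase core. Dlat had 6.59 and 8.58 FPKM in the KO pools, against 6.50 and 4.37 FPKM in the control pools (log2 fold change 0.43, SE 0.27, adjusted p = 0.612 by limma). Pdk1, a kinase that switches pyruvate dehydrogenase off, was at 0.080 and 0.108 FPKM in the KO pools, at 0.068 FPKM in control pool 1 and listed at 0 in control pool 2.

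In the rest of the pentose phosphate pathway, Rpia came closest to Tkt. Rpia, which makes ribose phosphate, had 12.4 and 14.9 FPKM in the KO pools, against 9.96 and 9.26 FPKM in the control pools, with no overlap (log2 fold change 0.46, SE 0.23, adjusted p = 0.505 by limma). Pgd, which yields NADPH in the oxidative branch, had 26.1 and 42.6 FPKM in the KO pools, against 30.6 and 32.985 FPKM in the control pools (log2 fold change 0.07 ± 0.25 SE). Rpe, the epimerase of the non-oxidative branch, had 34.4 and 47.9 FPKM in the KO pools, against 44.8 and 45.1 FPKM in the control pools. Taldo1, transaldolase, which works in series with Tkt, had 132 and 205 FPKM in the KO pools, against 189 and 182 FPKM in the control pools (log2 fold change −0.17 ± 0.22 SE). For Pgd, Rpe and Taldo1 the KO pools lay on either side of the controls.

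Isoform shares within a library do not depend on its scaling, and 6 were compared. Hk1 made up 19.2% and 21.6% of the hexokinase FPKM in the KO pools, against 12.6% and 13.8% in the control pools. The mean shares were 20.4% ± 1.65 in KO pools and 13.2% ± 0.862 in control pools (SD, n = 2 each), a difference of 7.21 percentage points (exact two-sided permutation p = 0.33, the smallest that 2 against 2 pools allow, adjusted over 6 shares to 0.667). Pfkp made up 0.757% and 3.16% of phosphofructokinase FPKM in the KO pools, against 6.33% and 6.47% in the control pools, at levels near the detection limit. Slc16a3 made up 4.44% and 2.47% of the Slc16a1 and Slc16a3 sum in the KO pools, against 0.359% and 1.22% in the control pools. Slc16a3 too was near the detection limit, at 0.025 to 0.226 FPKM. Neither difference could pass the exact test in a design of this size. With a pseudocount of 1 FPKM on each isoform, the exact two-sided permutation p of the Slc16a3 share was 0.667, above the smallest possible. The shares of Slc2a3, Ldhb and Aldoc overlapped between the groups. Slc2a3 was 55.1% and 67.6% of both glucose transporters in the KO pools, against 66.4% and 51.8% in the control pools, and Ldhb was 14.3% and 11.4% of lactate dehydrogenase in the KO pools, against 9.77% and 23.2% in the control pools.

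**Figure D3:**
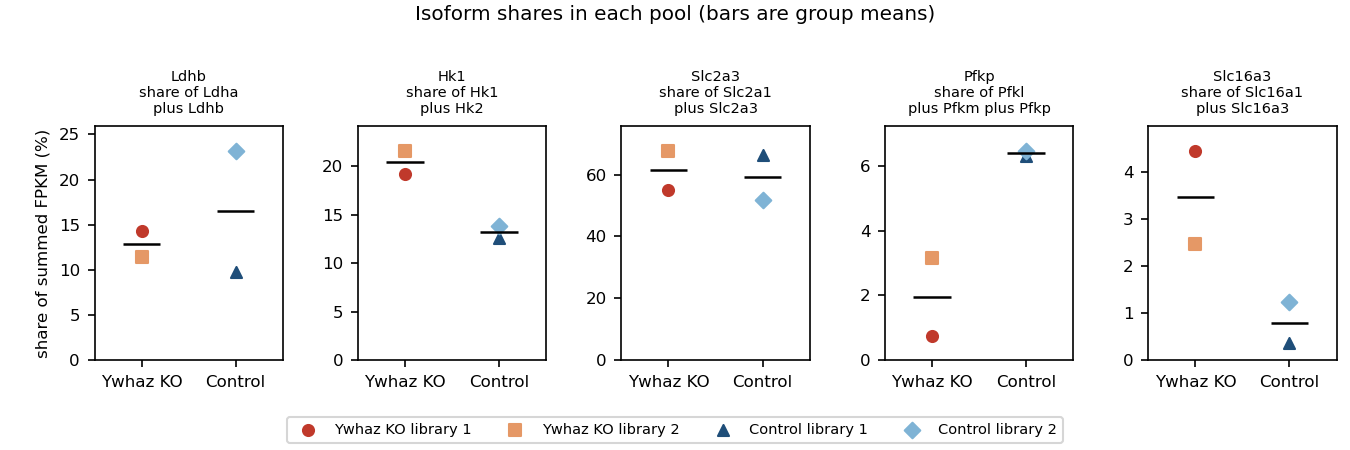
Share of an isoform in the summed FPKM of its family (y axis, percent) in each pool, for 5 of the 6 shares compared. Points are pools, Ywhaz KO on the left and control on the right, and bars are group means; the shares of Hk1, Pfkp and Slc16a3 do not overlap between the groups, and those of Ldhb and Slc2a3 do.

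The KO pools differed from each other over most of the set. KO pool 1 was below KO pool 2 in 24 of 27 genes (88.9%), against 66.1% of all genes tested, and with TPM scaling in 25 of 27 (92.6%), against 75.3%. The exceptions on the FPKM scale were Mpc1, Mpc2 and Pdha1, while Pdhb and Dlat, the other tested genes of mitochondrial pyruvate use, were lower in KO pool 1 like the rest. KO pool 1 was the lowest of the 4 pools in 16 of 27 genes (59.3%, against 31.9% of all genes tested), and KO pool 2 the highest in 17 (63.0%, against 40.6%). The median SD between KO pools was 0.33 on the log2(FPKM + 1) scale in the set and 0.20 over all genes tested, while between control pools it was 0.11 in the set and 0.15 over all genes tested. Relative to the mean of all 4 pools, the median deviation of the 27 genes was −0.27 in KO pool 1 and 0.23 in KO pool 2, against 0.07 in control pool 1 and −0.02 in control pool 2. Leaving out KO pool 2 brought the median log2 fold change of the set to −0.27, and leaving out KO pool 1 brought it to 0.20. These are descriptions of single pools, with no test.

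**Figure D4:**
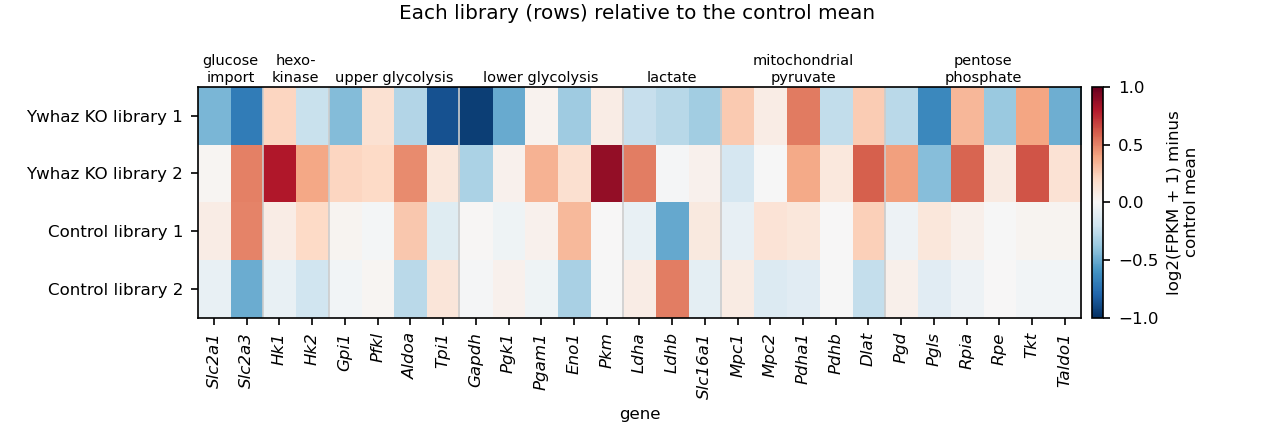
Deviation of each pool (rows) from the mean of the control pools on the log2(FPKM + 1) scale (colour) for the 27 genes tested (columns), grouped by metabolic step. Blue is below and red above the control mean; KO pool 1 is blue for most genes and KO pool 2 red for most, and KO pool 1 is the higher of both for Mpc1, Mpc2 and Pdha1.

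Some other values moved between the KO pools in the same order. Ywhaz itself was lower in KO pool 1 than in KO pool 2, as given above. Summed FPKM of 10 trophectoderm markers were 553 and 946 in the KO pools, against 889 and 662 in the control pools, led by Id2 and Dppa1, with 9 of the 10 lower in KO pool 1 than in KO pool 2. Of these 10, Hand1, Tfap2c and Krt18 lay above control in both KO pools (27.4% of all genes tested did). Elf5 lay below control in both (14.0% did), and 6 overlapped. Summed FPKM of 10 primitive endoderm markers were 433 and 645 in the KO pools, against 569 and 410 in the control pools, led by Dab2 and Gata6. All 6 of the 6 tested were lower in KO pool 1, though Sox17 was nearly equal in both KO pools. Dab2 alone was at 394 and 599 FPKM in the KO pools, against 510 and 363 FPKM in the control pools. Of the 6 tested, Sox17 and Sparc lay below control in both KO pools (14.0% of all genes tested did), and 4 overlapped. Sox17 had 0.521 and 0.523 FPKM in the KO pools, against 1.13 and 2.03 FPKM, and Sparc 2.17 and 5.41 FPKM, against 12.7 and 6.65 FPKM. Of the 4 not tested, Gata4 and Sox7 also lay below, and Foxa2 and Lama1 overlapped. Epiblast markers, 9 of 10 matched, summed to 353 and 388 FPKM in the KO pools, against 255 and 245 FPKM in the control pools, and 5 of the 8 tested (62.5%) were lower in KO pool 1. Of the 8 tested, Pou5f1, Nanog, Zfp42 and Tdh lay above control in both KO pools (27.4% of all genes tested did), and 4 overlapped. Over all genes tested, 66.1% were lower in KO pool 1 than in KO pool 2. The part of the Ywhaz RNA level and of lineage makeup in the spread of the glucose genes was not tested. Markers of 3 other sources had sums that were higher in KO pool 1 than in KO pool 2. Among them only Cd68, Hba-a1, Hba-a2 and Zp3 averaged 1 FPKM or more. The 10 cumulus and granulosa markers summed to 0.927 to 1.24 FPKM in the KO pools and 0.993 to 1.55 FPKM in the control pools, with Has2 and Cyp19a1 listed at 0 in every pool. The 10 oocyte markers summed to 14.7 and 9.98 FPKM in the KO pools, against 9.62 and 12.4 FPKM in the control pools, most of it Zp3. The 8 blood markers summed to 37.3 and 23.4 FPKM in the KO pools, against 22.9 and 37.3 FPKM in the control pools, most of it Cd68 and globin.

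Neighbouring genes of the same metabolism were read from 5 lists, with 87 of 89 symbols matched and 52 genes tested. Of these 0 passed adjustment (limma), while 6 were higher and 2 lower at an unadjusted limma p under 0.05 (over all genes tested 7.75% and 3.33%), and their median log2 fold change was 0.01. The smallest p was that of Gpd1l, which resembles the cytosolic glycerol phosphate dehydrogenase. Gpd1l had 179 and 137 FPKM in the KO pools, against 75.4 and 72.7 FPKM in the control pools (log2 fold change 1.07, SE 0.20, adjusted p = 0.129 by limma). Its log2 fold change was 1.26 without KO pool 2 and 0.88 without KO pool 1 (limma adjusted p = 0.000193 and 0.0280, with the spread taken from the control pools alone). Without control pool 1 or 2 it was 1.09 or 1.04 and did not pass (limma adjusted p = 0.168 and 0.183). Gpd2, the mitochondrial glycerol phosphate dehydrogenase that works with the cytosolic form in the glycerol phosphate shuttle, had 13.6 and 14.7 FPKM in the KO pools, against 9.26 and 7.93 FPKM in the control pools (log2 fold change 0.67, SE 0.23, adjusted p = 0.346 by limma). In the malate-aspartate shuttle, the carrier Slc25a11 had 37.0 and 47.4 FPKM in the KO pools, against 58.4 and 50.7 FPKM in the control pools, and the transaminase Got1 had 87.9 and 129.07 FPKM in the KO pools, against 150 and 129.01 FPKM in the control pools.

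Among the other glucose genes, 17 were tested and their median log2 fold change was −0.05. Fbp1, the gluconeogenic fructose bisphosphatase, had 3.08 and 6.25 FPKM in the KO pools, against 10.5 and 7.83 FPKM in the control pools (log2 fold change −0.89, SE 0.31, adjusted p = 0.347 by limma). Fbp1 was at −1.30 without KO pool 2 and at −0.47 without KO pool 1. Slc2a8, which encodes the intracellular transporter GLUT8, had 94.6 and 77.4 FPKM in the KO pools, against 132 and 94.9 FPKM in the control pools. G6pc3, a glucose phosphatase, had 25.6 and 27.7 FPKM in the KO pools, against 38.9 and 32.9 FPKM in the control pools. Of the chaperones that take monocarboxylate transporters to the membrane, Emb had 1.38 and 3.87 FPKM in the KO pools, against 4.70 and 6.00 FPKM in the control pools (log2 fold change −0.89, SE 0.34, adjusted p = 0.379 by limma). Emb was at −1.41 without KO pool 2 and at −0.37 without KO pool 1. Bsg, the more abundant one, had 481 and 581 FPKM in the KO pools, against 708 and 591 FPKM in the control pools (log2 fold change −0.29 ± 0.18 SE). Both chaperone genes were thus below control in both KO pools, Bsg narrowly, where 14.0% of all genes tested were below.

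Around pyruvate dehydrogenase, Pdhx, the component that anchors the dehydrogenase Dld to the core, had 8.73 and 11.8 FPKM in the KO pools, against 6.63 and 6.15 FPKM in the control pools (log2 fold change 0.59, SE 0.25, adjusted p = 0.423 by limma). Pdp2, a phosphatase that switches the complex on, had 11.1 and 12.7 FPKM in the KO pools, against 10.8 and 7.42 FPKM in the control pools. In the pentose phosphate pathway, G6pdx, the entry enzyme, had 5.13 and 6.28 FPKM in the KO pools, against 9.65 and 6.43 FPKM in the control pools (log2 fold change −0.41, SE 0.27, adjusted p = 0.615 by limma). Rbks, Tktl1 and Prps1 overlapped between the groups. Among 15 tested regulators of glucose use, the median log2 fold change was 0.22 and 2 were higher at an unadjusted limma p under 0.05, against 7.75% of all genes tested. Nrf1, a transcription factor of nuclear genes for mitochondria, had 21.0 and 31.1 FPKM in the KO pools, against 16.8 and 11.8 FPKM in the control pools (log2 fold change 0.82, SE 0.26, adjusted p = 0.305 by limma). Nrf1 was at 1.09 without KO pool 1 and at 0.55 without KO pool 2. Prkaa1, a catalytic subunit of the energy sensor AMPK, had 13.8 and 14.4 FPKM in the KO pools, against 9.07 and 8.31 FPKM in the control pools (log2 fold change 0.64, SE 0.23, adjusted p = 0.347 by limma). Vhl, which marks hypoxia-inducible factors for destruction, had 48.3 and 42.8 FPKM in the KO pools, against 37.9 and 35.5 FPKM in the control pools, while Mlx, a partner of the glucose-sensing ChREBP, had 38.8 and 46.7 FPKM in the KO pools, against 56.3 and 49.5 FPKM in the control pools.

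The deposited table also assigns genes to KEGG pathways, which hold 25 of the 33 genes. Of the 66 genes of glycolysis and gluconeogenesis, 37 were tested, with a median log2 fold change of −0.05 and 2 genes each way at an unadjusted limma p under 0.05, which 7.75% of all genes tested reached as higher and 3.33% as lower. Of the 34 genes of the pentose phosphate pathway, 22 were tested, with a median of −0.06, 1 gene higher and 2 lower. Of the 44 genes of pyruvate metabolism, 27 were tested, with a median of −0.01, 2 higher and 1 lower. The only genes at that p not in the lists above were Glo1, which detoxifies the glycolytic by-product methylglyoxal, at 73.5 and 92.4 FPKM in the KO pools, against 139 and 116 FPKM in the control pools, and Acaca, acetyl-CoA carboxylase, at 1.83 and 2.34 FPKM in the KO pools, against 1.15 and 0.721 FPKM in the control pools.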

How the data were processed

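The 33 genes and all gene lists were chosen with earlier results of these data known, so no list serves as independent evidence. Per the labels' protocols, RNA was extracted with Trizol from pools of 5 blastocysts, and libraries were made after oligo(dT) selection. The authors deposited 1 table with FPKM per library, rounded to 3 decimals. The submitters' processing notes list these tools with no role: RSEM, DESeq2, StringTie (1.3.1), HISAT2 (2.1.0), Bowtie2 (2.2.8) and fastp (0.18.0). GRCm39 is the build they list. The deposited log2 fold change is that of KO over control group means, per the file headers and values. Which tool gave the deposited p-value and FDR of the authors is not stated in the labels. KEGG assignments came from the same table.

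Values were tested as log2(FPKM + 1), which understates changes of low genes, in genes averaging 1 FPKM or more. limma 3.58.1 in R 4.3.3, with trend, was fitted on group alone over 9544 genes with Benjamini-Hochberg adjustment at 0.05, which leaves 2 residual degrees of freedom. Fold changes are KO minus control. The script was tested on simulated data. FPKM is scaled by length and depth, so a shift in total RNA per embryo is not visible. Isoform shares were compared by exact two-sided permutation tests. Alternatives were other pseudocounts (0.1 and 0.5), filters (none and 5 FPKM) and scalings, limma without trend, a replicate block and leaving out each pool.

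Named were the 33 genes, Ywhaz, and from each list of other pathway genes the up to 4 with the smallest p. Gene copies and KEGG genes outside the lists were chosen with their values in view. Depth estimates came from single-transcript genes over 1500 nt, in which 78.4% to 84.2% of the lowest values were less than 0.1 away from a whole fragment. Gene positions are those of GENCODE M21 on GRCm38, and promoters those of RefSeq on GRCm38.p6. The symbols Gpi and Mpc1l were not matched, nor was the epiblast marker Tdgf1. Whether counting used strand is not given in the sources.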

Additional observations from a re-analysis of the deposited data

How the results depend on the processing

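All values here are of KO minus control. Over the alternatives that keep all 4 pools, 5 of the 27 tested genes changed the sign of a log2 fold change near zero. Median-of-ratios scaling gave −0.0013 for Hk2, −0.0015 for Aldoa, −0.042 for Mpc1, −0.052 for Mpc2 and −0.018 for Pgd, and quantile normalization gave −0.0083 for Hk2. The count of all genes called, 7 in the reported fit, was 0 with no filter on low values (1400 at an unadjusted p under 0.05), 13 with TPM scaling, 4 with median-of-ratios scaling, 0 after quantile normalization (1249 unadjusted), 3 without trend, and 17 to 249 when a pool was left out. The set's calls were 0 under each of these except leaving out KO pool 2, and 0 to 1 over the pools left out. Genes of the set higher at an unadjusted p, 2 as reported, were 4 with no filter. That fit also takes in the 6 genes averaging under 1 FPKM, and of the 27 genes tested only Tkt and Pdha1 were higher in it. The count was 1 with a filter of 5 FPKM, 0 with TPM scaling, and 1 each with median-of-ratios scaling, quantile normalization and no trend. Genes lower, 2 as reported, were 1 with no filter, 1 after quantile normalization and 0 to 5 without a pool. With no filter, the 1400 genes were counted over more genes than the 9544 of the reported fit. Over all genes, 1058 had an unadjusted p under 0.05 in the reported fit. That count was 875 with TPM scaling, 1251 with median-of-ratios scaling, 734 with a filter of 5 FPKM and 1046 without trend. The median of the set ran from −0.27 to 0.20 without a pool. The cause was not tested.

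With a replicate block the calls over all genes were 38, those of the set 0, with 0 higher and 2 lower at an unadjusted p. In that fit 655 of the 9544 genes had an unadjusted p under 0.05. Nothing in the labels pairs same-numbered pools, whose deviations correlated at −0.24 over all genes. A crossed pairing, added after the data were seen, gave 475 calls over all genes and 1 in the set, with 6 higher and 2 lower. The unadjusted p was under 0.05 for 2041 of the 9544 genes there, against 1058 in the reported fit.

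Leaving out 1 pool at a time reversed 17 of the 27 genes in 23 of 108 fits. The log2 fold change then ran from −0.30 to 0.47 for Aldoa, −0.42 to 0.23 for Eno1, −0.43 to 0.22 for Gpi1, −0.23 to 0.38 for Hk2, −0.23 to 0.51 for Ldha, −0.66 to 0.37 for Ldhb, −0.17 to 0.26 for Mpc1, −0.10 to 0.18 for Mpc2, −0.24 to 0.11 for Pdhb, −0.27 to 0.41 for Pgd, −0.50 to 0.045 for Pgk1, −0.37 to 0.090 for Rpe, −0.34 to 0.044 for Slc16a1, −0.46 to 0.016 for Slc2a1, −0.70 to 0.51 for Slc2a3, −0.49 to 0.15 for Taldo1, −0.87 to 0.11 for Tpi1 and, outside the set, −0.017 to 0.58 for Rbks. The share differences ran from −10.3 to 3.07 percentage points for Ldhb, −5.09 to 9.57 for Slc2a3 and −0.013 to 0.10 for Aldoc. Depth limits the 6 genes under 1 FPKM. Every fit without a KO pool takes its spread from the control pools alone.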
